A study of Mus musculus with 8 samples.

Results

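The 37 °C-only distal regions were stretches of open chromatin that all 4 ATAC-seq libraries of SN4741 cells at 37 °C called as peaks and none of the 4 libraries at 39 °C did. ATAC-seq uses a transposase that cuts and tags accessible DNA, so that fragments pile up over open regions. Each library's peak list was shortened to its 54845 strongest peaks, peaks sharing at least 1 bp were merged, and a region was kept when it lay more than 1 kb from every annotated transcription start site (TSS). This left 1277 of 46228 distal regions and of 64780 merged regions in all. The background for that choice was 2.76% of distal regions called only at 37 °C, beside 2.26% (1044 regions) called in the reverse pattern, in all 4 libraries at 39 °C and none at 37 °C. With promoters included, 2.44% of all merged regions were called only at 37 °C and 1.75% only at 39 °C. The regions were chosen by these peak calls, ranked on −log10 q, so their difference between temperatures is a description and carries no test. The number rests on the rule: with whole lists it was 3912, and where a call needed peaks over at least 50% of the merged region it was 2012.

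SN4741 is a mouse line from embryonic substantia nigra, immortalised with a temperature-sensitive SV40 T antigen, driven by the tyrosine hydroxylase promoter, whose activity is reduced at 39 °C, the non-permissive temperature. The 37 °C group grew in 10% serum and the 39 °C group spent 48 h at 39 °C in 0.5% serum, so temperature, T antigen activity and serum cannot be told apart in any comparison here. The line is polyploid with a karyotype that varies from cell to cell, and nothing in the labels says that the 4 replicates of a group were separate cultures, so p-values measure the spread between these libraries, which may be technical. After filtering the libraries held 49.8 to 169 M fragments. Of 12 midbrain dopaminergic marker genes, 6 or 7 had a promoter peak in each library, and Ddc, Slc6a3, Slc18a2, Lmx1a and Otx2 had none in any. A promoter peak was called for 5 to 7 of 10 neural progenitor markers, 4 of 5 neuron markers, 3 or 4 of 5 glial markers, all 6 mesenchymal markers and at most 1 of 6 microglia, blood and endothelial markers in each library.

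Distal open regions are mostly enhancers, insulators and other elements that act on genes from a distance. Transcription factors bind them through short sequence motifs. TEAD factors, which recruit the growth-linked co-activators YAP and TAZ, recognise GGAATG. AP-1 factors, the Fos and Jun dimers induced by serum and growth factors, recognise TGACTCA, and CTCF holds the anchors of chromatin loops. The T antigen of SV40 binds and inactivates p53 and the Rb family.

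Sequence around the summit, the highest point of a peak, is shown for 4 of the 10 regions with the best mean rank in the 37 °C lists, for the region beside the cyclin gene Ccne1 and for 1 of a run of 3 regions by Slc38a6. They were picked among regions with a TEAD match, and capitals mark each match to GGAATG or its reverse complement on the + strand of mm10 (sequence from RefSeq GRCm38). Labels give the nearest coding gene, which for the Ccdc59 region was 164275 bp away.
Spin1 region, chr13:51128476-51128676: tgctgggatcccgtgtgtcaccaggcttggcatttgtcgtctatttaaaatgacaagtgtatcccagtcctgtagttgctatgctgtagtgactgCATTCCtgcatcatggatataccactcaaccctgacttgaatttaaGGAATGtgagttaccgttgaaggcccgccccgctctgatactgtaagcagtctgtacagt
Mpdz region, chr4:81302173-81302373: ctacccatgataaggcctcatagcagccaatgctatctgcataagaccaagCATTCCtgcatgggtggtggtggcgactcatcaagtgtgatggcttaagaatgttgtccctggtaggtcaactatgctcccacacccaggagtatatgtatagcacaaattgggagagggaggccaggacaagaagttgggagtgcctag
Ccdc59 region, chr10:106006179-106006379: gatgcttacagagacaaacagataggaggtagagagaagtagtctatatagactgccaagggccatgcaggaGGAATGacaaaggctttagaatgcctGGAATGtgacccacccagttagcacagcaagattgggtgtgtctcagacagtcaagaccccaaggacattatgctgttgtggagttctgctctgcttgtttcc
Sgms2 region, chr3:131498847-131499047: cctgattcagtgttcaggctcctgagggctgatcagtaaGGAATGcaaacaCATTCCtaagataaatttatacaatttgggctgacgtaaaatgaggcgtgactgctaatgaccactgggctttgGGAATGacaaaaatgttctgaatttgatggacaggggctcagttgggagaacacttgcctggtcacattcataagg
Ccne1 region, chr7:38112053-38112253: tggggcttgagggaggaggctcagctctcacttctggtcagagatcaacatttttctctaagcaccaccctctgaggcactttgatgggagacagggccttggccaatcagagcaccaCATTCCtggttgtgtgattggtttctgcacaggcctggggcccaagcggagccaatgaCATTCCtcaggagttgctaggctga
Slc38a6 region, chr12:73386834-73387034: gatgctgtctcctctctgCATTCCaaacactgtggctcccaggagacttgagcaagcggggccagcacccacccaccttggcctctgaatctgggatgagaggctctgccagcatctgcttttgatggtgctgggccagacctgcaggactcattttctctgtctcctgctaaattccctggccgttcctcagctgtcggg
The closest match lay 0 bp from the summit in the Ccdc59 region, 3 bp in the Spin1 region, 27 bp in the Sgms2 region and 80 bp in the Slc38a6 region. The Sgms2 window held 3 matches, and the Spin1, Ccdc59 and Ccne1 windows held 2 each.

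The 37 °C-only distal regions were weak peaks. Fold enrichment, the ratio of a peak's pileup to 1 genome-wide background per library, had a median over the 1277 regions of 5.07, 5.15, 5.23 and 5.59 in 37 °C replicates 1 to 4. The median over all peaks used was 11.5, 12.2, 11.9 and 12.7 in the same libraries. In rank the median region stood 82.8% to 86.0% of the way down the 4 shortened lists, and only 3 or 4 regions ranked above the middle of any of them. Many regions therefore lay close to the end of the list that decided whether they counted as called.

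The unshortened 39 °C lists show what was at these places below the limit. Of the 1277 regions, 437 had a weaker peak in the whole list of 39 °C replicate 1, 401 in replicate 2 and 529 in replicate 3. Their median fold was 3.11, 3.01 and 3.39. Replicate 4 had none, because its list was the shortest and was used whole, down to a fold of 2.14 where the other 39 °C lists ended at 3.48 to 4.09. In all, 726 regions (56.9%, 95% Wilson interval 54.1% to 59.5%) had a weaker peak in at least 1 list at 39 °C, and 206 had one in 3 lists. The remaining 551 regions (43.1%) had no peak in any whole list at 39 °C. Of the 1044 39 °C-only regions, 755, 525, 396 and 820 had a peak in the whole lists of 37 °C replicates 1 to 4, which were longer. The lists hold no signal outside peaks, and their lowest folds were 1.90 to 2.14 at 39 °C, so closed chromatin and a signal under that level cannot be told apart.

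**Figure D1:**
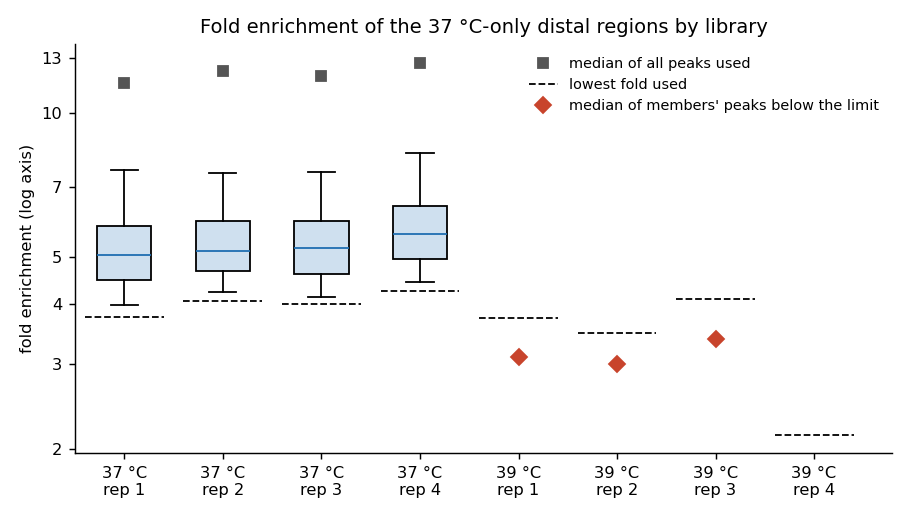
Fold enrichment (log axis) by library: boxes show the quartiles over the 1277 regions at 37 °C with whiskers at the 5th and 95th percentiles, squares the median of all peaks used, dashes the lowest fold used, and diamonds the median fold of the weaker 39 °C peaks. The boxes sit well below the squares, and the diamonds lie at 3.01 to 3.39, just under the dashes.

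The limits of the rule cut through a continuum. The region nearest to a start site among those kept lay 1005 bp from Gm3565, and the farthest among those left out lay 974 bp from Rab25. Among the 1277 regions, the lowest-ranked peak at 37 °C was peak 54844 of 54845. The best-ranked 39 °C peak in them that did not count was peak 54869 of replicate 2, in a region 19486 bp from a Magi1 start site. A further 785 distal regions had all 4 libraries at 37 °C and 1 at 39 °C, and 943 had 3 at 37 °C and none at 39 °C.

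The 2 best-ranked regions lay at chromosome ends. Region 1 (chr16:98107205-98107767) had folds of 53.4, 56.4, 53.9 and 58.3 in 37 °C replicates 1 to 4 and no peak in any whole list at 39 °C. Its 563 bp held 47 copies of the telomere repeat TTAGGG on either strand, and the 100001 bases that follow it in the reference are unknown bases except for 1. Region 2 (chr5:151733358-151734683) had folds of 16.4, 19.4, 21.6 and 17.2 and a weaker peak, of 2.79, in 39 °C replicate 3, held 22 copies of the repeat and ended at the same distance from the end of chromosome 5. Whether reads from other telomeres reach these peaks was not tested.

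The next regions of the ranking lay in introns or between genes, some of them more than 100 kb from a coding start site. Region 3 (chr13:51128005-51129058), in an intron of Spin1, a reader of histone methylation, had folds of 13.1, 13.9, 11.6 and 14.6 at 37 °C and no peak in any whole 39 °C list. Region 4 (chr4:81301814-81302617), in an intron of the scaffold protein gene Mpdz, had folds of 11.2, 11.8, 12.8 and 15.5 and likewise no peak at 39 °C. Both were above the median of all peaks in at least 2 of their 37 °C lists. Region 5 (chr9:14156356-14158330), 116737 bp from the stress-response gene Sesn3, had folds of 11.8, 12.1, 9.85 and 12.1 at 37 °C and weaker peaks of 3.20, 2.93 and 3.39 in 39 °C replicates 1 to 3. Among coding genes, regions 6 to 10 were nearest to Ccdc59, H13, Sh3bp4, Sgms2 and Evi5, with folds between 8.27 and 11.5 at 37 °C. Their start sites lay 164275, 7241, 158088, 6897 and 3044 bp away. Region 8 and region 10, the latter in an intron of Evi5, had no peak in any whole 39 °C list.

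By position, 48.2% of the 1277 regions lay in introns (616 regions, interval 45.5% to 51.0%), 45.8% between genes and 5.95% in exons. The exon share was 3.07% (2.18% to 4.29%) in the 39 °C-only distal regions and 3.95% (3.77% to 4.13%) in all distal regions. The 37 °C-only regions were also closer to genes. Their median distance to a start site was 9256 bp, against 13902 bp in the 39 °C-only and 11441 bp in the distal regions that all 8 libraries called. The share between 1 and 5 kb was 30.8% (28.3% to 33.4%), against 21.2% (18.8% to 23.7%) and 24.8% (24.3% to 25.4%). At the other end, 1.41% lay more than 100 kb away, against 5.56% and 2.84%.

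Base composition differed in the same sense. Mean GC content within 100 bp of the summit was 50.4% ± 6.27 (SD over the 1277 regions), 45.4% ± 5.94 in the 39 °C-only regions and 49.1% ± 6.46 in those called in all 8 libraries. A window held 2.80 CpG dinucleotides on average in the 37 °C-only regions, 1.30 in the 39 °C-only and 2.86 in the shared regions. The 37 °C-only regions were thus near the shared regions in these measures and the 39 °C-only regions stood apart. Their median width was 909 bp, against 771 bp and 1506 bp.

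Of 24 motifs searched within 100 bp of the summit, 5 had intervals that did not overlap between 37 °C-only and 39 °C-only distal regions. TEAD matches were in 27.3% of the 37 °C-only regions (349 regions, 25% to 29.8%), 16.3% (14.2% to 18.6%) of the 39 °C-only regions, 20.9% (20.4% to 21.4%) of those called in all 8 libraries and 20.0% of all distal regions. TEAD was the only motif of the 24 whose interval in the 37 °C-only regions lay above those of the 3 other sets plotted. For CTCF they resembled the shared regions, at 8.22% (6.84% to 9.86%) against 6.91%, and the 39 °C-only regions were low at 1.53%. The GC-rich SP/KLF box GGGCGGG had the same order, at 4.23%, 3.70% and 1.34%. The p53 decamer was in 5.95% (4.78% to 7.39%) of the 37 °C-only regions, 7.66% of the shared and 20.9% of the 39 °C-only regions. The Forkhead motif TGTTTAC was in 2.04%, 3.48% and 5.27%. AP-1 matches were the most frequent of these, at 29.1% (26.6% to 31.6%), with 24.5% in the 39 °C-only and 37.1% in the shared regions.

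**Figure D2:**
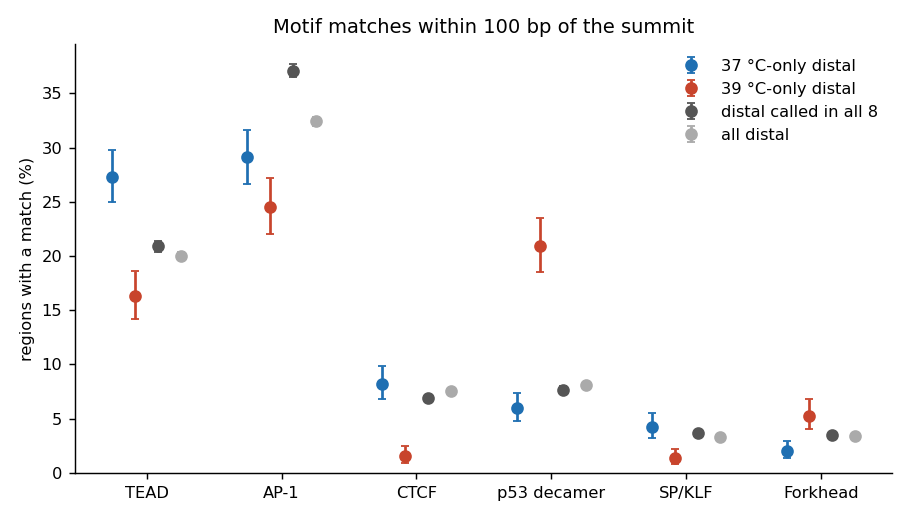
Share of regions (%) with a motif match within 100 bp of the summit in 4 sets of distal regions; points are shares and bars 95% Wilson intervals. TEAD matches were in 27.3% of the 37 °C-only regions, above the other 3 sets, and p53 decamers were in 20.9% of the 39 °C-only regions.

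TEAD matches in the 37 °C-only regions gathered at the summit. Their density was 2.00 per kb within 60 bp of the summit and 0.698 per kb at 200 to 260 bp, a ratio of 2.87. The ratio was 1.89 in the 39 °C-only and 2.17 in the shared regions. AP-1 was more sharply centred, with a ratio of 10.6, and so was CTCF, with 11.8. The p53 decamer was not centred in the 37 °C-only regions (ratio 0.877) and had a ratio of 2.51 in the 39 °C-only regions. Most of the 349 regions with a TEAD match held 1 (288 regions), 54 held 2 and 7 held 3 or more.

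**Figure D3:**
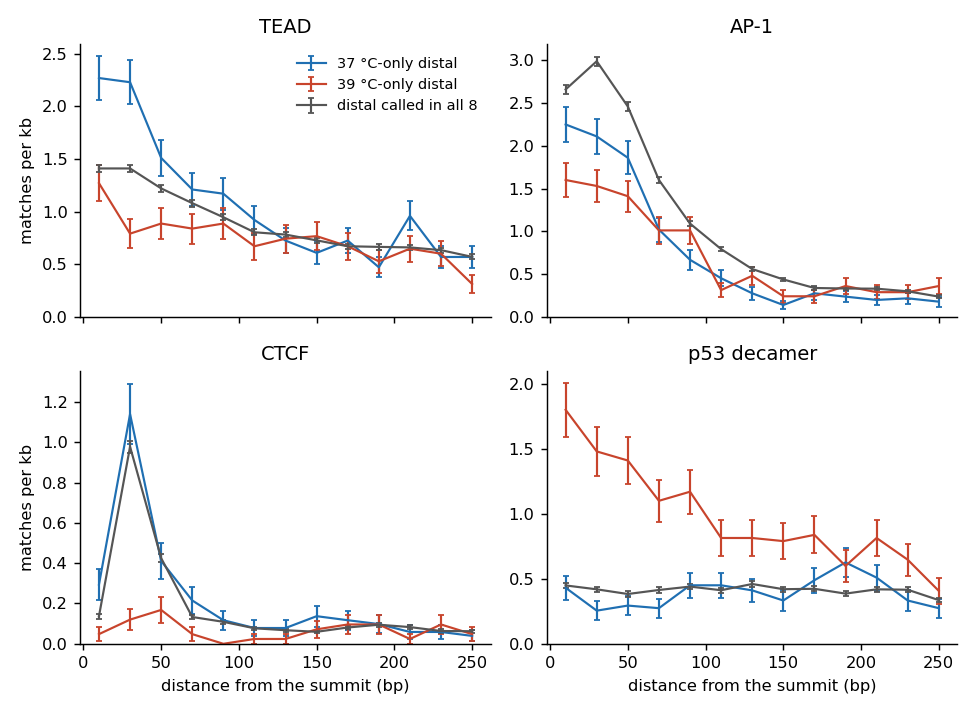
Motif matches per kb against distance from the summit (bp) in 3 sets of distal regions; bars are the square root of the count. The blue TEAD line starts at 2.27 matches per kb and falls to near the level of the other sets beyond about 100 bp, and only the 39 °C-only line rises towards the summit for the p53 decamer.

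TEAD matches were more frequent where nothing was called at 39 °C. They were in 31.8% (28.0% to 35.8%) of the 551 regions with no peak in any whole 39 °C list and in 24.0% (21.0% to 27.2%) of the 726 with a weaker peak. AP-1 showed 32.7% (28.9% to 36.7%) and 26.3% (23.2% to 29.6%), with intervals that touched. For CTCF the values were 7.26% and 8.95%. Both motifs together were in 82 regions, of which 42.7% had a weaker 39 °C peak, against 62.0% of the 639 regions with neither.

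The distal regions that the rule did not choose allowed a test over libraries, of the share of each library's called distal regions with a motif, restricted regions left out. The share with TEAD was 20.9%, 20.9%, 20.7% and 20.8% in the 37 °C libraries and 20.3%, 20.4%, 20.6% and 19.7% in the 39 °C libraries. Every 37 °C library was above every 39 °C library. The difference, 39 °C minus 37 °C, was -0.606 percentage points (p = 0.0286 by an exact two-sided permutation test, which is as low as 4 against 4 libraries can go), and the Benjamini-Hochberg adjusted p over the 24 motifs was 0.196. CTCF (7.97% ± 0.0985 against 7.28% ± 0.254, SD, n = 4) and the p53 decamer (7.51% ± 0.0551 against 7.96% ± 0.120) gave the same exact p and adjusted p. At an unadjusted p under 0.05 there were 3 of 24 motifs (12.5%), and none after adjustment. Without 39 °C replicate 4, whose list was used whole, the TEAD difference was -0.399. With 40000 peaks a list it was -0.372, and with whole lists it turned to 0.354. Both had exact permutation p = 0.0286 (adjusted p = 0.0686 and 0.0571), so with whole lists the groups were as fully separated in the opposite direction.

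The 37 °C-only distal regions were spread over the genome, with some short runs. The median distance from a region to the next of its kind was 305856 bp, and 494378 bp in the smaller 39 °C-only set. Another 37 °C-only region lay within 10 kb of 4.46% of them, within 50 kb of 16.8% and within 100 kb of 25% (319 regions, 22.7% to 27.4%). In the 39 °C-only set the shares were 4.79%, 11.2% and 19.6% (17.3% to 22.2%). With only regions more than 5 kb from a start site, 884 and 823 of them, the 100 kb shares were 17.3% and 17.4%. They were 66.3% and 7.84% with whole lists, where the sets held 3912 and 255 regions, and 46.2% and 13.6% where peaks had to cover 50% of a region. Among the 551 regions with no peak in any whole 39 °C list, another of the 551 lay within 100 kb of 12.2% (9.69% to 15.2%). Among the 10392 times a distal region lay within 100 kb of a 37 °C-only region, 4.08% were other 37 °C-only regions, against 2.76% of all distal regions. Of them 1.10% were 39 °C-only regions, against 2.26% of all. Around the 39 °C-only regions, 3.73% of 6548 such neighbours were of their own kind, against the same 2.26%.

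**Figure D4:**
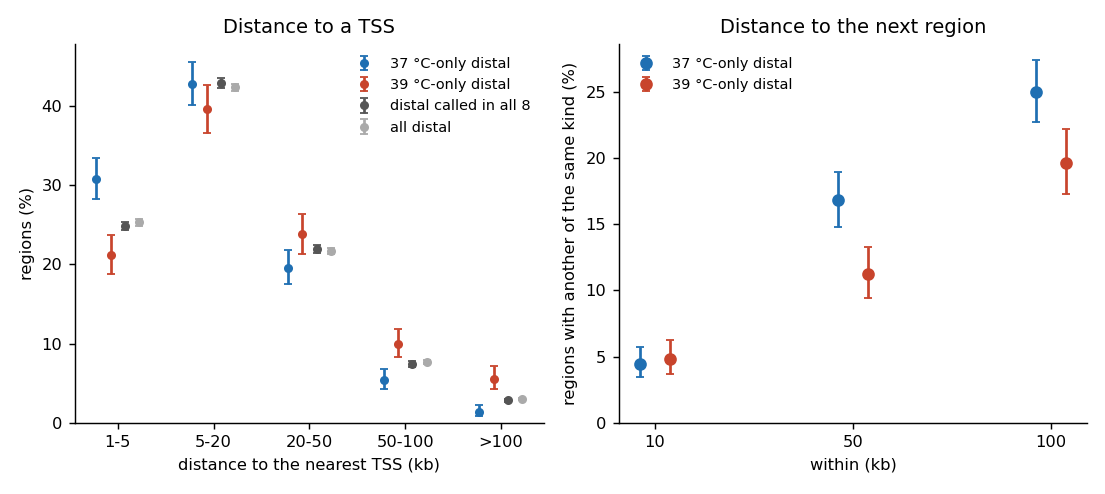
Left, share of distal regions (%) by distance to the nearest start site (kb) in 4 sets; right, share of the regions (%) with another of the same kind within 10, 50 and 100 kb; bars are 95% Wilson intervals. The 37 °C-only regions have 30.8% within 1 to 5 kb, and the 2 sets are alike at 10 kb (4.46% and 4.79%).

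Joined at gaps of up to 100 kb, the regions formed 139 chains of at least 2 and left 958 alone. There were 33 chains of 3 or 4, with 107 regions, and none was longer. These chains spanned 4.98 to 182 kb and also held 132 other distal regions, of which 85 were called in all 8 libraries and none only at 39 °C. Of all 46228 distal regions, 25637 were called in all 8 libraries and 2.26% only at 39 °C. Whether the chains differ from that was not tested. Of the 33 chains, 3 held no other distal region. The tightest, of 4.98 kb, lay at Mapkap1, a subunit of mTOR complex 2 (chr2:34641835-34646816). Another, of 30.3 kb, lay by the amino acid transporter gene Slc38a6 (chr12:73386524-73416855), and all 3 of its regions had a TEAD match. In the 33 chains of 3 or 4, 20 of the 107 regions (18.7%) had a TEAD match, against 27.3% of the whole set. The 8 chains of 4 included Magi3 and Lrig2, Afmid and Tha1, Ovol1 to Kat5, and the chemokine genes Ccl5 and Ccl6. Chromosome 11 held 9 of the 33 chains, and 109 of the 1277 regions (3.34% of its 3262 distal regions, interval 2.78% to 4.02%, beside 2.76% over all chromosomes).

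By chromosome the share of distal regions called only at 37 °C ran from 1.70% on chromosome 13 to 3.63% on chromosome 19 among those with members. On chromosome 7 it was 3.59% beside 1.30% called only at 39 °C, and on chromosome 13 it was 1.70% beside 2.76%. Copy number differs among chromosomes and cells of this line, and its part in these shares was not tested.

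As neighbours, 1163 of 21911 protein-coding genes (5.31%) had the start site nearest to at least 1 of the regions, beside 912 (4.16%) for the 39 °C-only set. Both kinds shared 99 genes, 8.51% of the former and 10.9% of the latter. Most neighbours, 1064, had 1 region, 85 had 2, 13 had 3 and 1 had 4. The gene with 4 was Tm4sf1, a membrane protein of migrating cells, whose regions lay 111532 to 416103 bp away among 21 distal regions nearest to it. The strongest of them had folds of 5.43, 6.23, 6.57 and 6.03 in 37 °C replicates 1 to 4.

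The other genes with most regions each had 3. Efnb2, the ephrin ligand of Eph receptors, had regions 138958 to 806861 bp away. The strongest was the farthest of them. It had an AP-1 match, folds of 7.39, 9.03, 8.27 and 10.2 and no peak at 39 °C. Tha1, a threonine aldolase gene, had 3 of the 6 distal regions nearest to it, and all 3 had a weaker peak in at least 1 list at 39 °C. Rhou, a small GTPase gene, had regions from 3960 bp. Others were Slc38a6, Uaca, Tnfsf18 (a ligand of the tumour necrosis factor family), Lrig2 and Ywhaz (a 14-3-3 protein). Each gene named here had a promoter peak in all 8 libraries, so the gene start was called at both temperatures.

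Among genes of signalling pathways, the share with a neighbouring region was highest for the TGF-beta and BMP pathway, 9 of 31 genes (29.0%), beside 5.31% of all protein-coding genes. It was 24.0% for 25 YAP and TEAD target genes and for 25 serum response and actin genes, with 6 genes in each. These genes also had many distal regions around them, 8.58, 10.7 and 5.96 per gene against 2.11 over all coding genes. Counted per distal region the lists were close to the background of 2.76%: 9 of 266 (3.38%, 1.79% to 6.30%), 6 of 267 (2.25%, 1.03% to 4.82%) and 6 of 149 (4.03%, 1.86% to 8.51%). The intervals of all 15 lists included 2.76%, so none of the lists stood apart by this measure.

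In the TGF-beta and BMP list the neighbours included the receptor gene Tgfbr2 and Id1, Id3 and Id4, inhibitors of basic helix-loop-helix factors. The Tgfbr2, Id3 and Id4 regions lay 143542, 32157 and 129340 bp from the start sites. The Id1 region (chr2:152729233-152730727), 5524 bp from the start site, had folds of 4.51, 5.87, 4.86 and 5.32 and no 39 °C peak. Among YAP and TEAD targets were the matricellular genes Thbs1 and Ccn1, the GTPase-activating protein gene Dlc1 and the ligand Tgfb2. Only the Tgfb2 region of these 4, 235466 bp from the start site, had a TEAD match. The Ccn1 region (chr3:145627820-145628726), 21255 bp away, had folds of 5.23, 6.68, 5.59 and 5.52 and no 39 °C peak. Of 26 genes of the Hippo pathway itself, Wwc2 was a neighbour (3.85%, beside 5.31% of all protein-coding genes).

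In the serum response list the immediate early gene Ier3 had a region 22062 bp away (chr17:35798722-35799622) with folds of 7.20, 8.49, 9.0 and 8.27, and Egr1, another immediate early gene, had 1 at 2795 bp with folds of 7.10, 7.31, 6.57 and 7.64. Neither had a peak in any whole 39 °C list, and the Egr2 region had none either, while that of Egr3 had 1. AP-1 genes with a region were Maf and Jdp2, 2 of 18, and the 39 °C-only set also had 2.

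Growth factor genes with a region were Met, the hepatocyte growth factor receptor, Fgfr3, and the MAPK phosphatases Dusp4 (281404 bp away) and Dusp5. In their list 6 of 33 genes had 1, beside 4 for the 39 °C-only set. The Met region (chr6:17495135-17495857) was intronic with folds of 6.51, 4.70, 6.45 and 6.93 and no 39 °C peak. In the Wnt list, 6 of 35 genes (5 for the 39 °C-only set) had 8 regions. Of these, 3 lay in introns of the effector gene Tcf7l2 with folds from 4.37 to 5.84. Wnt11, Fzd7 and Sfrp2 had 1 each, that of Sfrp2 307415 bp away. Of 41 cell cycle and DNA replication genes Ccne1 and Myc were neighbours. That was 4.88%, the same as for the 39 °C-only set, beside 5.31% of all protein-coding genes. The Ccne1 region (chr7:38111810-38112637), 4276 bp from the start site, had folds of 7.10, 9.03, 9.0 and 7.56, held 2 TEAD matches and had no 39 °C peak. Myc, a driver of growth, had regions 136071 and 213989 bp away, with AP-1 in the farther and TEAD in the nearer, and also 2 39 °C-only regions.

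Among lineage genes the neighbours were 3 of 31 neural progenitor genes (Pax3, Notch3, Sox2), 2 of 24 neuron genes (Syt1, Stmn2) and 2 of 18 glial genes (Mbp, Hdac11). These were 9.68%, 8.33% and 11.1% of their lists, beside 5.31% of all protein-coding genes. For the 39 °C-only set the shares were 16.1%, 12.5% and 11.1%, beside 4.16%. The Pax3, Sox2, Syt1 and Stmn2 regions lay 125563, 132887, 104977 and 384955 bp away. Of 20 midbrain dopaminergic genes 3 were neighbours. Sox6 had 2 regions, 1120 and 39723 bp from a start site, both without a 39 °C peak. Ddc, the decarboxylase that makes dopamine, had an intronic region (chr11:11844323-11844969) with folds of 3.96, 4.06, 4.62 and 5.52 but no promoter peak in any library. Lmx1b had a promoter peak in 2 of 4 libraries at 37 °C and in none at 39 °C, and its region had weaker peaks of 3.20, 2.93 and 3.29 in 39 °C replicates 1 to 3. Mesenchymal and matrix genes, 6 of 34 (7 for the 39 °C-only set), included Loxl2, Col6a3, Sparc and Col5a1. Adhesion genes were Bcar1 and Itgb1, 2 of 28, beside 4 for the 39 °C-only set. None of 14 microglia, blood and endothelial genes was a neighbour, beside 2 for the 39 °C-only set. Of the genes named from these lists, Sfrp2 was also nearest to 2 39 °C-only regions, as Myc was, and Tcf7l2, Met, Egr3, Tgfbr2 and Pax3 to 1 each.

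Around the regions more of the other regions were called at 37 °C than at 39 °C. Within 50 kb of them, with all restricted regions left out, 6289, 6016, 5886 and 6138 merged regions were called in 37 °C replicates 1 to 4 and 5802, 5746, 5714 and 5492 at 39 °C. The groups did not overlap, and the means were 6082 ± 172 and 5688 ± 136 (SD, n = 4), a difference of -394 (-6.47% of the 37 °C mean, with an exact two-sided permutation p = 0.0286). Near the 39 °C-only regions the counts were 3214 ± 88.2 and 3274 ± 118 (exact permutation p = 0.429). The difference between these differences was not tested. Over the whole genome, with the same regions left out, 52948, 50550, 49320 and 52023 regions were called at 37 °C and 51028, 50610, 50068 and 48078 at 39 °C. These groups overlapped, with a difference of -1264 (-2.47%, exact permutation p = 0.286). Taken as a share of each library's total, the regions within 50 kb made up 11.9% ± 0.0577 at 37 °C and 11.4% ± 0.0333 at 39 °C (SD, n = 4). That difference was -0.488 percentage points, or -4.11% of the 37 °C share, with no overlap (exact permutation p = 0.0286). Regions here still lie in the neighbourhood that the rule picked out, so neither measure is wholly independent of it. The flanking difference was -174 with 40000 peaks a list, -261 around regions more than 5 kb from a start site and -5768 with whole lists (exact permutation p = 0.0286 for each), and -1827 where peaks had to cover 50% of a region (exact permutation p = 0.0571). The exact permutation p was also 0.0571 when any 39 °C replicate was left out.

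Promoters of the neighbouring genes moved slightly in the same direction. A promoter peak was called for 83.1%, 82.5%, 82.7% and 82.7% of the 1163 genes at 37 °C and for 81.8%, 81.4%, 81.5% and 81.9% at 39 °C, with no overlap. The difference was -1.10 percentage points (82.7% ± 0.247 against 81.6% ± 0.205, SD, n = 4, exact permutation p = 0.0286). All protein-coding genes showed 62.0% and 61.3%, a difference of -0.710 points with the same exact permutation p = 0.0286, and whether the neighbours shifted more than other genes was not tested. The size rests on the processing: with 40000 peaks a list the difference for the neighbours was -0.481 (exact permutation p = 0.0571), with whole lists -3.07 and under the 50% requirement -5.85 (exact permutation p = 0.0286 for both). Of the neighbours, 934 had a promoter peak in all 8 libraries and 180 in none. In 7 (0.602%, 0.292% to 1.24%) the promoter was called in 4 of 4 libraries at 37 °C and none at 39 °C, beside 73 (0.333%) of all protein-coding genes, which lies inside that interval. The 7 were Lamc3, a laminin gene with 2 regions, Nkx6-2, H2-Oa, Btbd16, Mmrn2, Sh2d6 and 1810010D01Rik. These 7 were singled out after their values were seen.

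**Figure D5:**
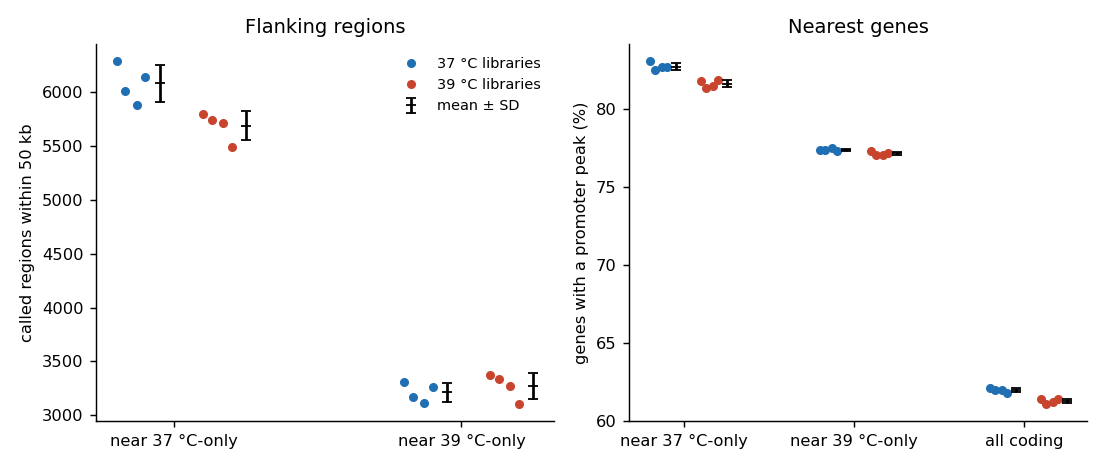
Left, number of called regions within 50 kb of the restricted regions; right, genes with a promoter peak (%), each point a library, with mean ± SD (n = 4) and axes that do not start at 0. Near the 37 °C-only regions all 37 °C points (5886 to 6289) lie above all 39 °C points (5492 to 5802), and near the 39 °C-only regions the groups overlap.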

How the data were processed

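Open chromatin was profiled by ATAC-seq in 8 libraries, 4 at 37 °C and 4 at 39 °C, each from 50000 cells and 12 amplification cycles. The authors aligned paired reads to mm10 with Bowtie2 (2.4.1) and called peaks per library with MACS (3.0.0a7) at q 0.05, with no control and no local background. The deposited lists give each peak's pileup signal in fragments, its fold enrichment (a ratio to the library's background), and p-values and q-values that the authors wrote as −log10. No reads per region were used here, so libraries were compared by calls.

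Lists were shortened to the length of the shortest, 54845 peaks, by −log10 q, ties by p, fold, then position (49 to 1060 peaks tied at the limit). Peaks sharing 1 bp were merged. Start sites, exons and introns came from GENCODE M21, and sequence from RefSeq GRCm38, the mm10 assembly. Libraries were grouped by their labels. Shares have 95% Wilson intervals, which cover counting error only. Library values were compared by exact two-sided permutation over 70 assignments, with Benjamini-Hochberg adjustment over 24 motifs. Overlap merging, motif scanning and the permutation test were tested on simulated data. Python 3.11.15, pandas 2.3.3 and numpy 2.4.6 were used.

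The regions, gene lists and motifs were chosen with earlier results of these data known. Named were the 10 regions with the best mean rank at 37 °C, the 10 coding genes nearest to most regions (1 of them is not reported here), up to 4 neighbours from each of 15 gene lists, and motifs with separate intervals. Alternatives changed the list length, ranking, overlap, distance, window, sex chromosomes, strongest peaks and libraries.

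Motifs were searched on both strands and may overlap each other. The letters were GGAATG for TEAD, TGACTCA for AP-1, TGACGTCA for CREB, TGTGGTT for RUNX, CCAATCA for NFY, GGGCGGG for SP/KLF, CCGGAAG for ETS, ACAATGG for SOX, TGTTTAC for Forkhead, TTCCNGGAA for STAT, AAAGGTCA for nuclear receptors, CAGCTG for the E-box of proneural factors, CACGTG for that of MYC, CAGGTG for that of ZEB and SNAI, TAATTA for homeobox factors, ATGCAAAT for POU factors and TTGCNNCAA for C/EBP. Longer motifs were those of CTCF, NFI, NF-kB, HSF and MEF2, the p53 decamer and the SRF CArG box. A match is a description, not a binding site.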

Additional observations from a re-analysis of the deposited data

Results flagged for a closer look

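In groups of 4 libraries, a library was looked at again when its gap to the nearest other, over the group's range, exceeded Dixon's 95% critical value. Of 67 such groups, 4 met this, and chance alone gives about 1 in 20. Of the distal regions outside the restricted ones, 39 °C replicate 4 had SP/KLF matches in 3.75% (3.32%, 3.29% and 3.33% in the other replicates), ETS matches in 1.46% (1.09%, 1.08% and 1.11%) and the E-box of ZEB and SNAI in 10.0% (9.36%, 9.29% and 9.41%). That library's list was also the only one used whole, down to a pileup of 0.341 fragments per M fragments kept, against 0.604 to 0.685 in the others. In 37 °C replicate 4 the SOX motif was in 3.41%, beside 3.39% in each of the other replicates.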

How the results depend on the processing

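Ranking by fold enrichment was planned as an alternative but could not differ: with 1 background per library, fold, p and q put the peaks in the same order, and all 54845 peaks were shared in each list. Those values are left out here, and of 132 others 97 kept their direction and side of the threshold or stayed within the interval of the reported value, or within 1.5 times for a count. The 97 include 18 for the TEAD difference between libraries, where no adjusted p was under 0.05. The share with another within 100 kb moved in 14 alternatives and stayed in 5. The flanking difference was weaker in 7 and the same in 13. With whole lists there were 3912 regions called only at 37 °C and 255 only at 39 °C, and the whole lists held 74026 to 92013 peaks at 37 °C and 54845 to 68410 at 39 °C. The TEAD share was then 20.7% (17.3% in the 39 °C-only set), and 66.3% had another within 100 kb. The TEAD difference outside the restricted regions reversed to 0.354 (exact permutation p = 0.0286, adjusted p = 0.0571). The cause was not tested. With peaks covering 50% of a region there were 2012 regions, 46.2% with another within 100 kb, and the flanking difference was -1827 (exact permutation p = 0.0571). With 40000 peaks a list, 51.7% were in introns, 18.3% had another within 100 kb, and the promoter difference was -0.481 (exact permutation p = 0.0571). Beyond 5 kb of a start site the intron share was 44.3%, the TEAD share 29.9% and the share with another within 100 kb 17.3%. Within 250 bp of the summit TEAD matches were in 39.5% (31.0% of the 39 °C-only and 34.3% of all distal regions). Another region within 50 kb was found for 16.8%.

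Added after seeing the data were 5 alternatives. Of them, no peak in any whole 39 °C list left 551 regions, 45.4% in introns, 31.8% with TEAD and 12.2% with another within 100 kb. Basic GENCODE transcripts gave 28.0% with another within 100 kb. Without the libraries above 100 M fragments, both at 37 °C, that share was 33.2%, and the flanking difference of -425 and promoter difference of -1.16 had exact permutation p = 0.0667, the smallest that 2 against 4 allows. The TEAD difference outside the restricted regions was then -0.491 (exact permutation p = 0.200, adjusted p = 0.600). With ties in reverse order there were 1275 regions and no difference crossed its threshold. As a share of all regions called in a library, the flanking difference was -0.488 percentage points (exact permutation p = 0.0286).

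Leaving out 1 replicate at a time gave 1389 to 1778 regions, 48.1% to 49.6% in introns, 26.1% to 27.7% with TEAD and 26.5% to 30.7% with another within 100 kb. The TEAD difference was -0.678 to -0.399, the flanking difference -494 to -372 and the promoter difference -1.29 to -0.917. The flanking difference had exact permutation p = 0.0571 when any 39 °C replicate was left out, whichever it was.

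Same-numbered libraries showed little shared deviation (r = 0.053, -0.016, -0.001 and -0.079), beside -0.061 to 0.068 for other pairs. The labels do not say whether same-numbered libraries were cultured or prepared together. With a replicate block (sign-flip, smallest exact p 0.125) the flanking difference of -394 and the promoter difference of -1.10 had p = 0.125. Without the 2 deepest libraries there were 1723 regions, and the part of depth was not tested.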
